A study of Mus musculus with 6 samples.

Results

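Genes of splicing factors and of the spliceosome were compared between Leydig cells of the fetal testis (FLCs) and of the adult testis (ALCs), the androgen-producing cells of either stage. Members were chosen by symbol from the deposited comparison of both stages: the Srsf, Srrm, Tra2, Clk, Srpk, Hnrnp, Snrp, Lsm, Sf3a, Sf3b, Prpf, U2af, Rbfox, Celf, Mbnl, Ptbp, Khdrbs, Esrp and Nova families, the numbered Rbm genes, Sf1, Rnps1, Tia1 and Tial1. This rule found 95 of the 10580 genes in the table. The table holds only genes with an adjusted p below 0.05 (DESeq2 Wald test with Benjamini-Hochberg adjustment), so a difference between stages in each member was a condition of its being there. GENCODE vM21 has 159 protein-coding genes with such names, and the 64 that are not listed under the same symbol, among them Srsf2, Srsf5 and Srsf9, were not analysed here.

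FLCs came from male embryos at E18.5 and ALCs from male mice at P100, with 3 libraries of each stage. Both groups carried the Nr5a1-GFP transgene, which places green fluorescent protein under the control of Nr5a1. In the testis this gene is active in Sertoli cells as well as in Leydig cells, and the brightest cells were sorted. Embryos came from CD-1 outbred females mated to heterozygous transgenic males, and cells of several sorts were pooled into libraries, so a library is a pool of animals.

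Splicing removes introns from a pre-mRNA. The U1 and U2 particles mark the ends of the intron and its branch point, the U4/U6.U5 tri-snRNP joins them, and the assembled spliceosome cuts and joins the RNA. SR proteins and hnRNP proteins bind the pre-mRNA and favour or hinder the use of nearby splice sites, and kinases of the Clk and Srpk families phosphorylate SR proteins. Regulators such as Rbfox, Nova, Celf, Mbnl, Esrp and Ptbp proteins set splicing patterns that are typical of neurons, muscle or epithelia.

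Values are normalized counts. The table gives the mean over all 6 libraries and the log2 fold change, with ALCs in the numerator, and the mean of each stage was derived from both, so a negative fold change is a gene higher in FLCs. Values of single libraries are not used here, and errors are the standard error (SE) of the log2 fold change over 3 against 3 libraries. The lowest steps in the table put 1 read, summed over a stage, at 0.590 normalized counts in FLCs and 0.743 in ALCs, which amounts to about 10830300 and 11341300 reads per library on listed genes. The libraries were paired end, and whether such a step is 1 read or 1 pair of reads is not given in the sources used here. Markers of other cells were also unequal between stages. The 6 spermatid markers, all listed and all higher in ALCs, summed to 63.4 normalized counts in FLCs against 14199 in ALCs. Of 4 spermatocyte markers, 2 were listed and summed to 2.22 and 295. Of 5 immune markers, 4 were listed and summed to 361 and 2258, and 2 of 3 Sertoli cell markers summed to 436 and 17.0. Interstitial progenitor markers, 2 of 3 listed and both higher in FLCs, summed to 2019 and 761. Of 3 endothelial markers only Esam was listed, with 13.5 and 191. The 4 proliferation markers summed to 3058 in FLCs and 599 in ALCs. The 6 Leydig cell markers were all listed, 2 higher in FLCs and 4 in ALCs, and summed to 835819 and 1418210. In sorted bulk RNA, fewer cells of a type and less RNA per cell cannot be told apart, and the part of these other cells in the results was not tested. All 3 FLC libraries and 1 ALC library were read in lane 2 and 2 ALC libraries in lane 1, so lane and stage cannot be fully separated.

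Of the 95 splicing genes, 71 were higher in FLCs (74.7%) and 24 in ALCs. Among all listed genes 46.1% were higher in FLCs and 53.9% in ALCs, which is 30.4% and 35.5% of all 16049 tests. The median log2 fold change of the splicing genes was -0.59, against 0.41 for all listed genes. Most differences were below a fold of 2. With an adjusted p below 0.01 and a fold above 2, here called enriched, 21 members were enriched in FLCs (22.1%), where 22.3% of listed genes and 14.7% of all tests were. Only 7 members were enriched in ALCs (7.37%), where 32.1% of listed genes and 21.2% of all tests were. On the values as listed, the share of members enriched in FLCs was close to that of listed genes, and the share enriched in ALCs was lower. With fold changes centred on the median of listed genes, 47 members (49.5%) were enriched in FLCs and 5 (5.26%) in ALCs, against 32.5% and 26.7% of listed genes, so the reading of the FLC side depends on the centring. At a mean of at least 100, 16 members (19.0%) and 3 (3.57%) were enriched, against 20.4% and 25.7% of listed genes. Against the stricter question of whether the fold itself exceeds 2 (the fold change and its SE tested against a log2 limit of 1 on either side), 8 of the 95 members passed towards FLCs and 4 towards ALCs. Of the 10580 listed genes 1271 and 2220 passed, which is 7.92% and 13.8% of all 16049 tests. Members are all listed genes, so the counts to set beside theirs are those of listed genes. By these counts the members' share was lower than that of listed genes in both directions.

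The tilt was steeper at a mean of at least 1000, although the Spearman correlation of mean and log2 fold change was weak, -0.10 across the 95 genes. Of 63 splicing genes whose mean reached 1000 normalized counts, 54 were higher in FLCs (85.7%), with a median of -0.72, while 46.6% of the 4374 listed genes at this level were higher in FLCs, with a median of 0.32. Of the 11 with a mean under 100, 5 were higher in FLCs and 6 in ALCs. Summed over all 95 genes, the implied means were 331345 in FLCs and 220433 in ALCs, a ratio of 1.503. They made up 1.73% of the summed listed counts in FLCs and 0.872% in ALCs. The summed listed counts were themselves unequal, at 1.918e+07 in FLCs and 2.528e+07 in ALCs, a ratio of 0.759, and the shares reflect this as well.

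**Figure D1:**
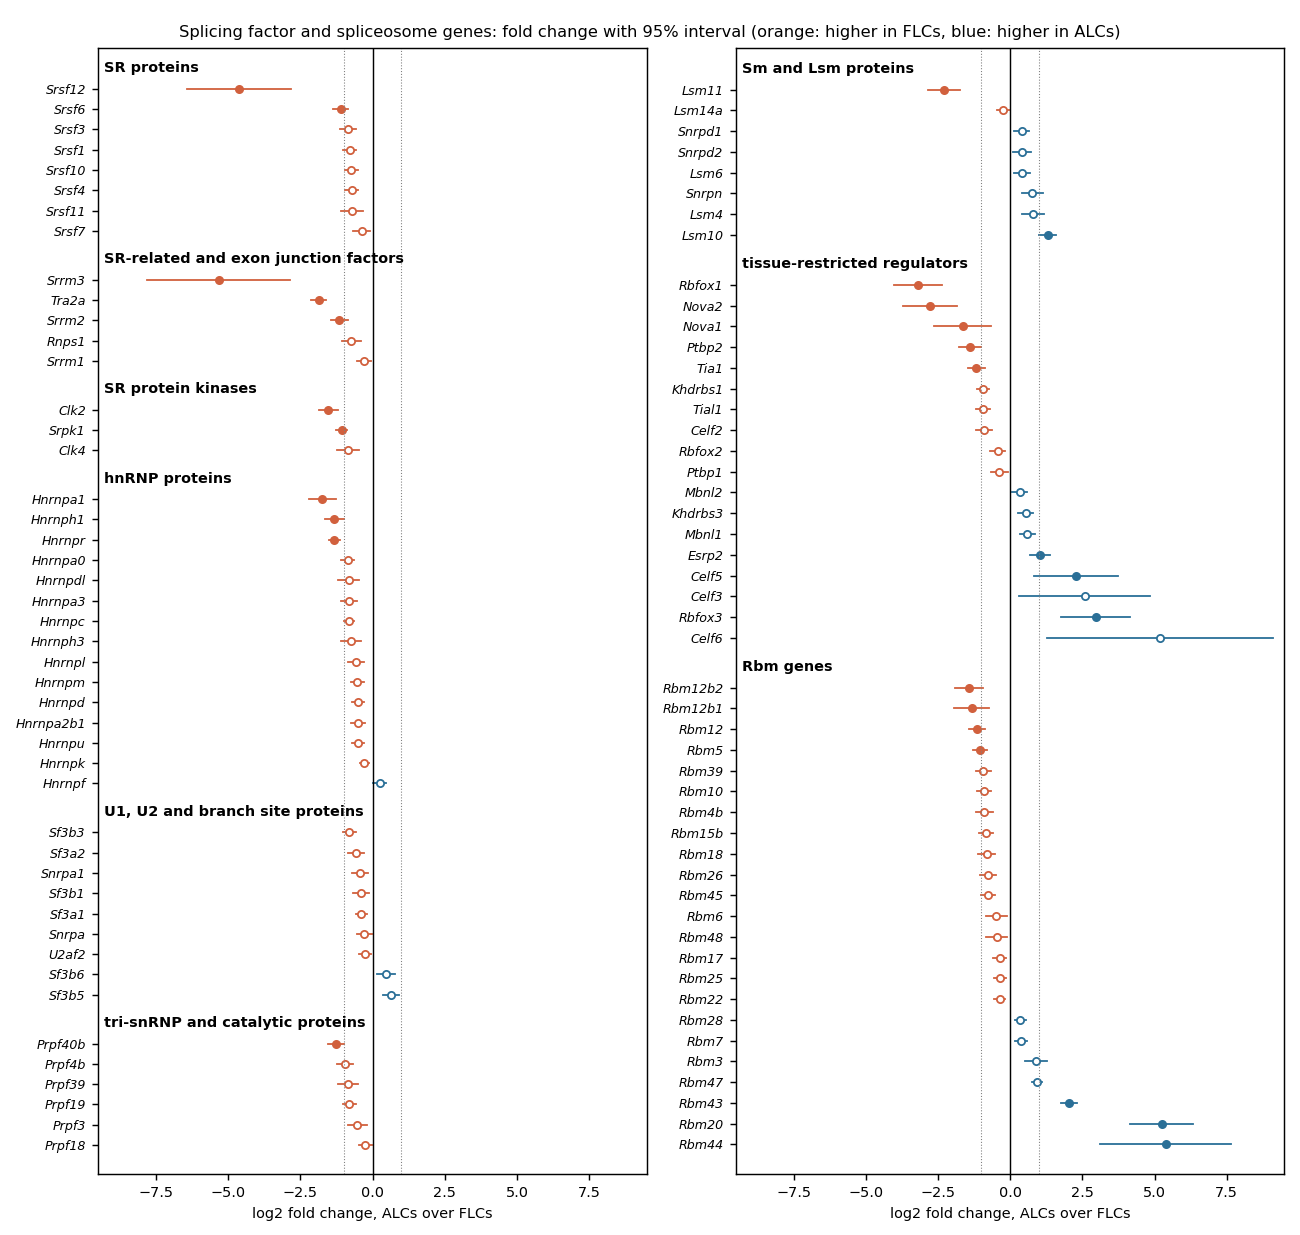
Log2 fold change, ALCs over FLCs, (x axis) of the 95 splicing genes by functional group, with bars for the 95% interval (1.96 SE) from 3 libraries per stage, filled points for enriched genes and dotted lines at a fold of 2. All members of the SR protein, SR-related and kinase groups lie left of 0, as do those of the tri-snRNP and catalytic group, which holds the Prpf genes. Of 8 Sm and Lsm genes, 6 lie right of 0.

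**Figure D2:**
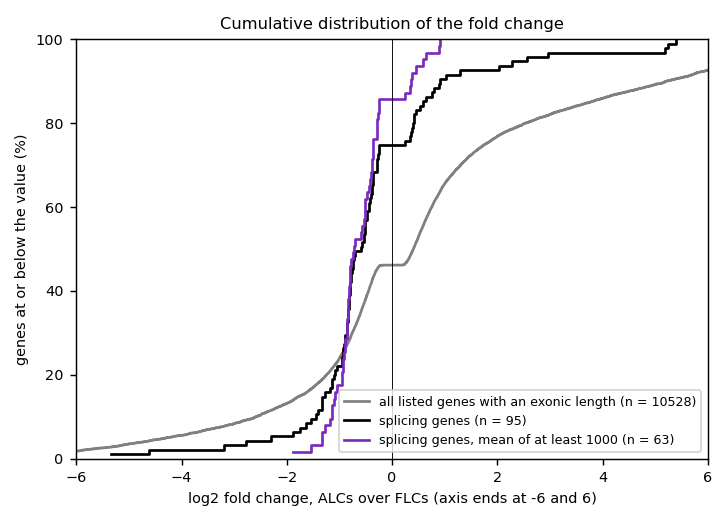
Cumulative share of genes (y axis, %) by log2 fold change, ALCs over FLCs, (x axis) for all listed genes with an exonic length (grey), the 95 splicing genes (black) and the 63 of them with a mean of at least 1000 (violet). The curves pass 0 at 74.7% for the splicing genes and 85.7% for the abundant ones; the flat stretch near 0 is where small changes were not listed.

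The upstream sequences of the most abundant enriched members of each direction show the kind of start these genes have. Entries of RefSeq (GRCm38.p6) were found for 79 members, and the 250 bases before the start are given 5′ to 3′ on the strand of the gene for the 3 most abundant FLC-enriched members and the 2 ALC-enriched members with a mean of at least 100 whose entry lies within 100 bases of the GENCODE start. Srrm2 lies on chromosome 17 (window chr17:23802937-23803186, plus strand), Srsf6 on chromosome 2 (chr2:162931258-162931507, plus), Hnrnph1 on chromosome 11 (chr11:50376740-50376989, plus), Rbm43 on chromosome 2 (chr2:51935164-51935413, minus) and Lsm10 on chromosome 4 (chr4:126096403-126096652, plus). The window of Srrm2 precedes a transcript start that lies inside the annotated span of the gene, and that of Lsm10 runs 30 bases into the annotated gene. Capitals mark CG dinucleotides.
Srrm2: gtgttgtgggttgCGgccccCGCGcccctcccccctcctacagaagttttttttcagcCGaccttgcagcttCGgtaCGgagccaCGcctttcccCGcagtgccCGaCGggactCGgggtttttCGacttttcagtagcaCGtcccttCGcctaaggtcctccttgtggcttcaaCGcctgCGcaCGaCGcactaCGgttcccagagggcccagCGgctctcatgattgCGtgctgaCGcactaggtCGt
Srsf6: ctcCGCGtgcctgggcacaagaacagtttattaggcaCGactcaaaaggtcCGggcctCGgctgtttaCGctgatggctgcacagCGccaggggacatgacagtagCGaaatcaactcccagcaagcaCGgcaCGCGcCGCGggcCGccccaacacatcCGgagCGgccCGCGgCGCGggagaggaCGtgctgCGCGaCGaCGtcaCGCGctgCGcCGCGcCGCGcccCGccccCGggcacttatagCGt
Hnrnph1: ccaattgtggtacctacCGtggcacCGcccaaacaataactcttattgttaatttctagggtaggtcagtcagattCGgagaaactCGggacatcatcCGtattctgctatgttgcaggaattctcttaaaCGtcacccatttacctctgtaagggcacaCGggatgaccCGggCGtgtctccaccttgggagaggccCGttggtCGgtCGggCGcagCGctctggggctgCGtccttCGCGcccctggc
Rbm43: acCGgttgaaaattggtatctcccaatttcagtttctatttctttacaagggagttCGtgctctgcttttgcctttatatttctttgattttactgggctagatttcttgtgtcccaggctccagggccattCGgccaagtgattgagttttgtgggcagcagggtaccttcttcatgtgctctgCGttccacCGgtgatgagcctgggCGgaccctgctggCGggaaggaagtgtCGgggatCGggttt
Lsm10: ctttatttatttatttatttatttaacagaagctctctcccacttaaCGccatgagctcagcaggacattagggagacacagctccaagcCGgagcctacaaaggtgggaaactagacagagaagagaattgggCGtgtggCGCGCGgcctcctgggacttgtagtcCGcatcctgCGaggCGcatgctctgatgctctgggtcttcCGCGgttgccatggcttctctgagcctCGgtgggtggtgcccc
The windows of the FLC-enriched genes held 23 (Srrm2), 35 (Srsf6) and 17 (Hnrnph1) CG dinucleotides, and those of the ALC-enriched genes 9 (Rbm43) and 12 (Lsm10). Over all members with an entry, the median was 19 for 63 genes higher in FLCs and 10.5 for 16 higher in ALCs. The same order was seen over listed genes, with medians of 16 and 12, and over all 32851 entries the median was 6. An SP1 motif (GGGCGG on either strand) was present in 59.5% of the members' windows and 32.7% of all windows, but also in 60.5% of those of listed genes higher in FLCs and 52.3% of those higher in ALCs. An ETS motif (CCGGAAG on either strand) was present in 15.2% of the members' windows and 6.91% of all windows, and in 11.99% and 10.5% of those of listed genes of either direction. The members' shares were thus nearer to those of listed genes than to all windows. The share with the SP1 motif was 60.3% for members higher in FLCs and 56.3% for those higher in ALCs, so the motif did not separate the directions. A match of letters is a description and not a site of binding.

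SR proteins bind exonic enhancers and recruit the splicing machinery. All 8 listed Srsf genes were higher in FLCs, with a median log2 fold change of -0.77, and 2 were enriched. This is 25% of the 8, close to the 22.3% of listed genes enriched in FLCs. Srsf6, the most abundant of them, had 12319 normalized counts in FLCs and 5716 in ALCs, a log2 fold change of -1.11 ± 0.13 (SE) with a DESeq2 adjusted p of 8.04e-17. It lies on chromosome 2 (162931528 to 162937121). Srsf12, on chromosome 4 (33208991 to 33233340), showed the largest fold of the family at a low level. It had 78.4 normalized counts in FLCs and 3.18 in ALCs, about 133 and 4 reads over the libraries of a stage, a ratio of 26.4 with a 95% counting interval of 10.1 to 98.4. The ratio uses reads rounded to whole numbers and scaled by the size of 1 read in each stage, so it differs from the fitted fold of 24.6. The fitted log2 fold change was -4.62 ± 0.92 (DESeq2 adjusted p 1.45e-06).

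The other 6 fell between a log2 fold change of -0.84 and -0.37. Srsf3 stood at 4196 in FLCs and 2344 in ALCs (-0.84 ± 0.14), and Srsf1, the founding member of the family, at 6501 and 3741 (-0.80 ± 0.11). Srsf10, Srsf4 and Srsf11 were close to these at -0.73 ± 0.11, -0.72 ± 0.11 and -0.71 ± 0.19. Srsf7 changed least, from 2726 to 2106 (-0.37 ± 0.15, DESeq2 adjusted p 0.0229). In Srsf4, 43.0% of the exonic bases lie opposite a transcript on the other strand. The library kit marks strand, but whether counting used it is not given in the sources used here.

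The 5 listed SR-related and exon junction genes were also all higher in FLCs, and 3 were enriched (60%, against 22.3% of listed genes). Srrm2, a large scaffold of nuclear speckles on chromosome 17 (23790532 to 23824741), was the most abundant of all 95 genes, above 99.3% of listed genes by mean. It fell from 37603 normalized counts in FLCs to 16956 in ALCs (-1.15 ± 0.16, DESeq2 adjusted p 1.03e-12). Tra2a, an SR-like activator of exon inclusion on chromosome 6 (49243924 to 49264033), had 2103 in FLCs and 574 in ALCs (-1.87 ± 0.13, DESeq2 adjusted p 5.16e-43). Its 95% interval, -2.14 to -1.61, lay wholly beyond a fold of 2. Tra2b was not analysed here.

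Srrm3, known for the inclusion of neuronal microexons, had the lowest fold change of all members (-5.34 ± 1.26, DESeq2 adjusted p 5.2e-05). It rested on few reads: 29.8 normalized counts in FLCs and 0.737 in ALCs, or about 51 reads and 1 read. The ratio was 40.5, with a counting interval of 6.95 to 1632. Rnps1, a part of the exon junction complex, changed by -0.74 ± 0.17, and Srrm1, a coactivator paired with Srrm2 in speckles, by -0.29 ± 0.12. Srrm1 had 5229 and 4263 normalized counts, and its 95% interval, -0.53 to -0.06, did not overlap that of Srrm2, -1.46 to -0.84.

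Of the kinases that phosphorylate SR proteins, 3 were listed and all were higher in FLCs. Clk2 had 2819 normalized counts in FLCs and 975 in ALCs (-1.53 ± 0.17, DESeq2 adjusted p 1.27e-18). Srpk1 had 3612 and 1711 (-1.08 ± 0.10, DESeq2 adjusted p 5.4e-27), just beyond the fold limit, and Clk4 had 2033 and 1126 (-0.85 ± 0.19). Clk1, Clk3, Srpk2 and Srpk3 were not analysed here. Summed over each group, FLC levels exceeded ALC levels 1.79 times for SR proteins, 2.06 times for SR-related genes and 2.22 times for the kinases.

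Of 15 listed hnRNP genes, whose proteins coat pre-mRNA and often oppose SR proteins, 14 were higher in FLCs, and 3 were enriched. This is 20% of the group, close to the 22.3% of listed genes enriched in FLCs. Hnrnph1, a G-tract binding protein on chromosome 11 (50376990 to 50386528), had 10873 normalized counts in FLCs and 4336 in ALCs (-1.33 ± 0.17, DESeq2 adjusted p 1.16e-13). Hnrnpr had 2632 and 1051 (-1.32 ± 0.10, DESeq2 adjusted p 1.3e-41), with an interval of -1.51 to -1.14 beyond a fold of 2. Hnrnpa1 had 1064 and 319 (-1.74 ± 0.24, DESeq2 adjusted p 5.21e-12). Processed copies of Hnrnpa1 exist in the genome, and how reads shared with them were counted is not given in the sources used here, so its level is uncertain.

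The other listed hnRNP genes stayed below a fold of 2. Hnrnpa2b1, the highest of the group, had 22833 normalized counts in FLCs and 16032 in ALCs (-0.51 ± 0.12). Hnrnpu, a chromatin-associated scaffold, had 16522 and 11618 (-0.51 ± 0.10). Hnrnpl, Hnrnpm and Hnrnpd lay between -0.58 and -0.51, and Hnrnpa0, Hnrnpdl, Hnrnpa3, Hnrnpc and Hnrnph3 between -0.86 and -0.76. Hnrnpk changed by -0.28 ± 0.08. Among the listed hnRNP genes, only Hnrnpf, the close relative of Hnrnph1, was higher in ALCs. It had 1458 and 1737 normalized counts (0.25 ± 0.12, DESeq2 adjusted p 0.0426). Relative to the median of listed genes it was at -0.15, on the other side of 0. The tests of the pair were made gene by gene, and the intervals of -1.67 to -0.99 for Hnrnph1 and 0.03 to 0.48 for Hnrnpf did not overlap.

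The listed Snrp, Sf3a, Sf3b and U2af genes placed in the U1, U2 and branch site group changed by less than a fold of 2. Groups follow gene symbols, so Prpf40b, a U1-associated factor, is counted with the Prpf genes. Of the 9 genes of the U1, U2 and branch site group, 7 were higher in FLCs and 2 in ALCs, none was enriched, and the median was -0.39. Sf3b1, the branch site subunit and the most abundant of them, had 11418 normalized counts in FLCs and 8584 in ALCs (-0.41 ± 0.15). Sf3b3, another subunit of the same complex, changed most (-0.81 ± 0.11, from 5886 to 3365). The small subunits Sf3b5 and Sf3b6 went the other way, at 837 and 1306 (0.64 ± 0.14) and at 970 and 1328 (0.45 ± 0.16). U2af2, which reads the polypyrimidine tract, was nearest to no change (-0.26 ± 0.10). Members of the same complex were found on both sides of 0.

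All 6 listed Prpf genes, which take part in several steps of spliceosome assembly and catalysis, were higher in FLCs. Prpf19, a ubiquitin ligase of the activated spliceosome, was the most abundant, at 12552 and 7172 normalized counts (-0.81 ± 0.11). Prpf40b, a U1-associated factor, was the only enriched gene of the group, at 2127 and 879 (-1.28 ± 0.15, DESeq2 adjusted p 2.4e-17). The kinase gene Prpf4b had 3742 and 1939 and lay just short of the fold limit (-0.95 ± 0.14). Prpf18 was nearest to no change (-0.25 ± 0.11).

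The listed Sm and Lsm genes, most of which encode small ring proteins of snRNPs, were the exception to the general direction. Of these 8, 6 were higher in ALCs, and the median was 0.41, the same as that of all listed genes to 2 decimals. Snrpd1 and Snrpd2, Sm proteins of the shared ring, rose by 0.39 ± 0.13 and 0.41 ± 0.16, and Lsm6, of the U6 ring, by 0.41 ± 0.14. Lsm14a, a protein of cytoplasmic processing bodies, the most abundant of the group and the nearest to no change, was higher in FLCs, with 3245 and 2723 normalized counts (-0.25 ± 0.11, DESeq2 adjusted p 0.0320). Relative to the median of listed genes, Snrpd1 was at -0.01, on the other side of 0. Lsm4, also of the U6 ring, had 655 and 1137 normalized counts (0.80 ± 0.19). Snrpn, an imprinted gene for a relative of the SmB protein, had 275 and 468 (0.77 ± 0.18), but 27.3% of its exonic bases are shared with Gm38393 on the same strand and fewer with Snurf, which it is transcribed with. Snrpb was not analysed here.

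Lsm10 and Lsm11 encode the subunits that distinguish the U7 particle, which processes the 3′ ends of replication histone mRNAs, and they moved in opposite directions. Lsm10, on chromosome 4 (126096623 to 126098584), had 366 normalized counts in FLCs and 899 in ALCs (1.30 ± 0.16, DESeq2 adjusted p 6.11e-16). Lsm11, on chromosome 11 (45928269 to 45944935), had 642 and 131 (-2.29 ± 0.29, DESeq2 adjusted p 8.23e-15). Per kb of exonic length, the level of Lsm10 was 389 in FLCs and 954 in ALCs, and that of Lsm11 99.5 and 20.3. The proliferation markers fell in the same direction as Lsm11, and their part in it was not tested.

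The group labelled tissue-restricted regulators was formed by gene family, and the label does not hold for each member, such as Rbfox2. It was the most divided group, with 10 of 18 higher in FLCs and 8 in ALCs, 5 and 3 of them enriched. These are 27.8% and 16.7% of the 18, where 22.3% and 32.1% of listed genes were enriched. Several of the largest folds belonged to genes best known from neurons, at low levels. Rbfox1 had 118 normalized counts in FLCs and 12.9 in ALCs (-3.19 ± 0.43, DESeq2 adjusted p 5.72e-13). Rbfox3, known as the neuronal marker NeuN, had 7.27 and 56.8 (2.97 ± 0.61, DESeq2 adjusted p 2.97e-06). Their relative Rbfox2, expressed in many tissues, had 2887 and 2141 (-0.43 ± 0.14). Per kb of exonic length, Rbfox2 stood at 355 in FLCs and 263 in ALCs, above Rbfox1 at 26.8 and 2.93 and Rbfox3 at 1.25 and 9.76.

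Nova2 and Nova1, regulators of neuronal splicing, were both enriched in FLCs. Nova2 had 82.7 normalized counts in FLCs and 12.1 in ALCs (-2.78 ± 0.47, DESeq2 adjusted p 1.5e-08), with 31.7% of its exonic bases opposite a transcript on the other strand. Nova1 had 73.1 and 23.4 (-1.64 ± 0.50, DESeq2 adjusted p 0.00205). Ptbp2, the neuronal relative of the polypyrimidine tract repressor Ptbp1, had 864 and 328 (-1.40 ± 0.19, DESeq2 adjusted p 7.08e-13). Ptbp1 itself was high in both stages at 9357 and 7220 (-0.37 ± 0.14). Per kb, Ptbp1 exceeded Ptbp2 in both stages, at 1974 against 94.2 in FLCs and 1523 against 35.7 in ALCs. Ptbp3 was not analysed here.

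The Celf genes were split by level. Celf2 had 2399 normalized counts in FLCs and 1285 in ALCs (-0.90 ± 0.14). Celf3, Celf5 and Celf6 were higher in ALCs but rested on few reads. Celf5 had about 9 reads in FLCs and 35 in ALCs, a ratio of 4.89 with a counting interval of 2.31 to 11.6, and was enriched (DESeq2 adjusted p 0.00386). Celf3 had about 4 and 18 reads, a ratio of 5.66 (1.87 to 23.0), and its DESeq2 adjusted p of 0.0410 was not below 0.01. Celf6 had 0 reads in FLCs and about 8 in ALCs, at least 3.26-fold higher against a floor of 3 reads over the group. Celf1 and Celf4 were not analysed here.

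Mbnl1 and Mbnl2, the listed genes of a family that regulates the switch from fetal to adult splicing in muscle, were both higher in ALCs. Mbnl1 had 5427 and 8184 normalized counts (0.59 ± 0.14) and Mbnl2 had 5064 and 6381 (0.33 ± 0.13). Relative to the median of listed genes Mbnl2 was at -0.07, on the other side of 0. Of the STAR family, Khdrbs1 (Sam68) had 3363 and 1738 (-0.95 ± 0.10) and Khdrbs3 had 602 and 871 (0.53 ± 0.13), in opposite directions. Mbnl3 and Khdrbs2 were not analysed here. Tia1 had 2478 and 1095 (-1.18 ± 0.15, DESeq2 adjusted p 1.01e-14) and its relative Tial1 3036 and 1595 (-0.93 ± 0.12). Both bind U-rich sequence near splice sites. Esrp2, an epithelial splicing regulator on chromosome 8 (106130319 to 106136974), doubled from 402 to 814 (1.019 ± 0.18, DESeq2 adjusted p 3.12e-08) and lay just beyond the fold limit.

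**Figure D3:**
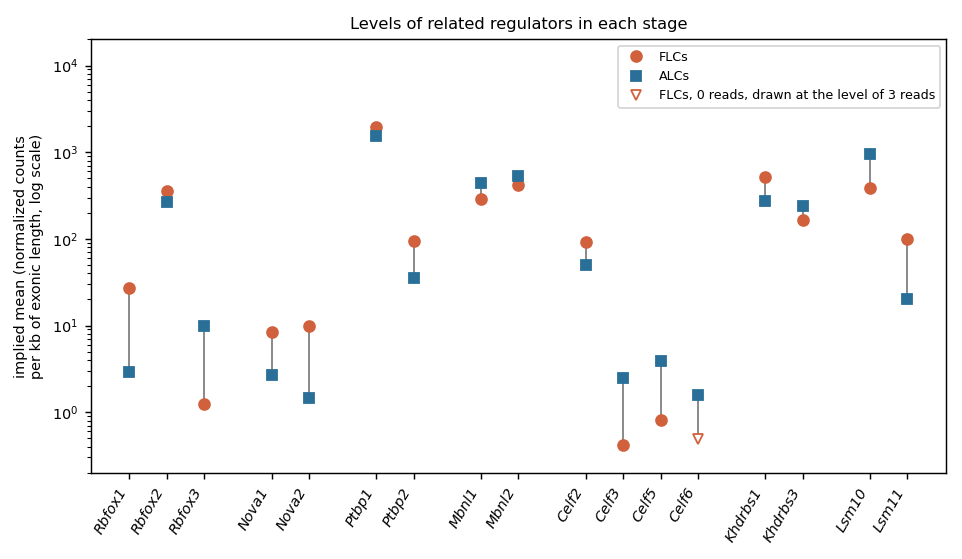
Implied mean per kb of exonic length (y axis, normalized counts, log scale) of related regulators in FLCs (orange circles) and ALCs (blue squares), joined by a line per gene. Rbfox1 and Rbfox3, Khdrbs1 and Khdrbs3, and Lsm10 and Lsm11 run in opposite directions, and Celf6, with 0 reads in FLCs, is drawn there at the level of 3 reads.

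The 23 listed Rbm genes share an RNA-binding motif, and many of them act outside splicing. Of these, 16 were higher in FLCs and 7 in ALCs, and the median without them was -0.65 for the other 72 genes. Enriched were 4 in FLCs (17.4%) and 3 in ALCs (13.0%), where 22.3% and 32.1% of listed genes were. The enriched genes on the FLC side were Rbm12b2 (424 and 157 normalized counts, -1.44 ± 0.24), Rbm12b1 (218 and 87.0, -1.33 ± 0.31), Rbm12 (1980 and 893, -1.15 ± 0.13) and Rbm5 (5478 and 2661, -1.04 ± 0.13). Rbm12b1 and Rbm12b2 are neighbouring copies on chromosome 4 that can share reads, and 32.6% of the exonic bases of Rbm12 are shared with Gm28036 on the same strand, so these 3 levels are uncertain. Rbm5, an alternative splicing regulator linked to apoptosis genes, lies beside Rbm6 on chromosome 9, which changed by -0.48 ± 0.18. Rbm39, a partner of U2af2, was the most abundant of the group, with 10892 and 5722 (-0.93 ± 0.14). Rbm17, Rbm25 and Rbm22, which act in the spliceosome, each changed by -0.36.

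On the ALC side, Rbm43 had 314 normalized counts in FLCs and 1288 in ALCs (2.03 ± 0.15, DESeq2 adjusted p 2.2e-43), with an interval of 1.75 to 2.32 beyond a fold of 2. It lies on chromosome 2 (51924448 to 51935163). Rbm47, which like Esrp2 is known from epithelia, had 2407 and 4538 (0.91 ± 0.09, DESeq2 adjusted p 3.21e-24), just short of the fold limit. Rbm3, a cold-inducible protein, had 735 and 1362 (0.89 ± 0.20). Rbm7, of the nuclear exosome adaptor, and Rbm28 rose by 0.37 ± 0.11 and 0.35 ± 0.10, and stood at -0.03 and -0.05 relative to the median of listed genes.

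The largest folds towards ALCs belonged to Rbm20 and Rbm44. Rbm20, the splicing regulator of titin in heart muscle, on chromosome 19 (53677306 to 53867080), had 4.17 normalized counts in FLCs and 158 in ALCs (5.25 ± 0.55, DESeq2 adjusted p 2.14e-20). This was about 7 against 213 reads, a ratio of 38.3 with a counting interval of 18.3 to 96.4. Rbm44, a gene known from germ cells, on chromosome 1 (91145089 to 91170795), had 1.203 and 50.3 (5.39 ± 1.16, DESeq2 adjusted p 9.36e-06), or about 2 and 68 reads, a ratio of 42.8 (11.4 to 360). Germ cell markers moved the same way, with spermatid markers at 63.4 and 14199 normalized counts and Ddx4 at 37.0 and 331. Their part in the differences of Rbm44 and Rbm20 was not tested.

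**Figure D4:**
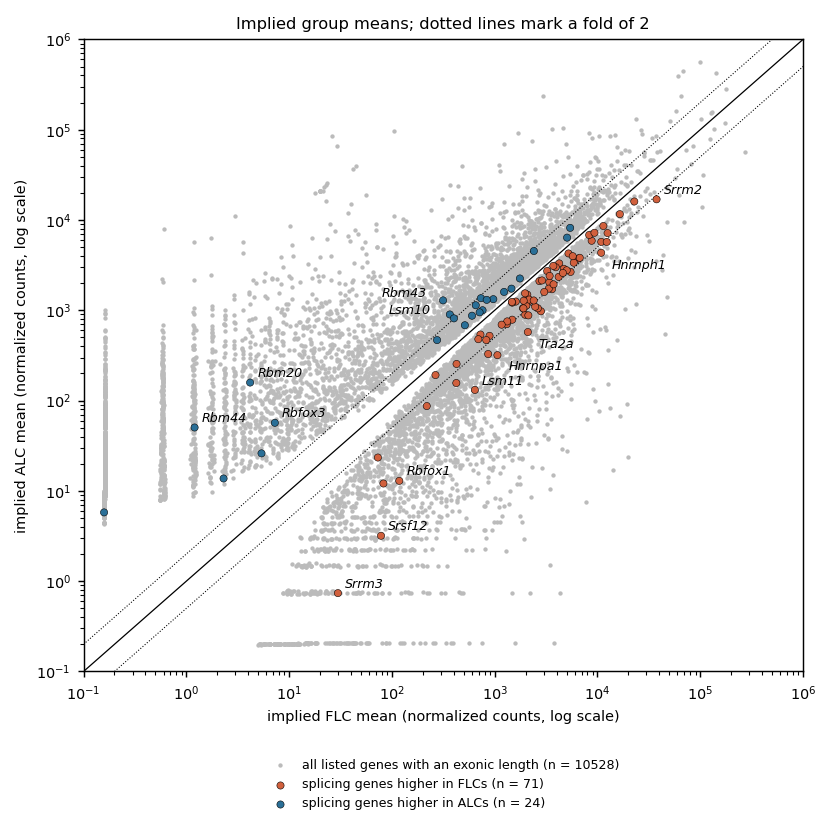
Implied mean of each gene in FLCs (x axis) and ALCs (y axis), both in normalized counts on log scales, for all listed genes with an exonic length (grey) and the 95 splicing genes (orange, higher in FLCs; blue, higher in ALCs). Abundant splicing genes lie mostly just below the diagonal, inside the dotted lines at a fold of 2, and the large folds of Srrm3, Srsf12, Rbm20 and Rbm44 lie at low levels, with genes at 0 reads along the left and lower edges.

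The fold change went with exonic length in members as in all listed genes. This length joins the exons of all annotated transcripts of a gene, retained-intron transcripts among them, so it can exceed that of any single transcript. Of 44 splicing genes with an exonic length of at least 6000 bases 86.4% were higher in FLCs, against 72.0% of 25 between 4000 and 6000 and 60.9% of 23 between 2000 and 4000. The shares over listed genes were 63.7%, 51.2% and 37.5%, lower in each of these classes. The Spearman correlation of length and log2 fold change was -0.28 across the 95 genes and -0.31 across 10528 listed genes, given as descriptions since all points share the same 6 libraries. The Sm and Lsm genes, the group that was higher in ALCs, had the shortest median exonic length of the groups, 2389 bases, against 5818 for all members. The part of length in their direction was not tested.

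**Figure D5:**
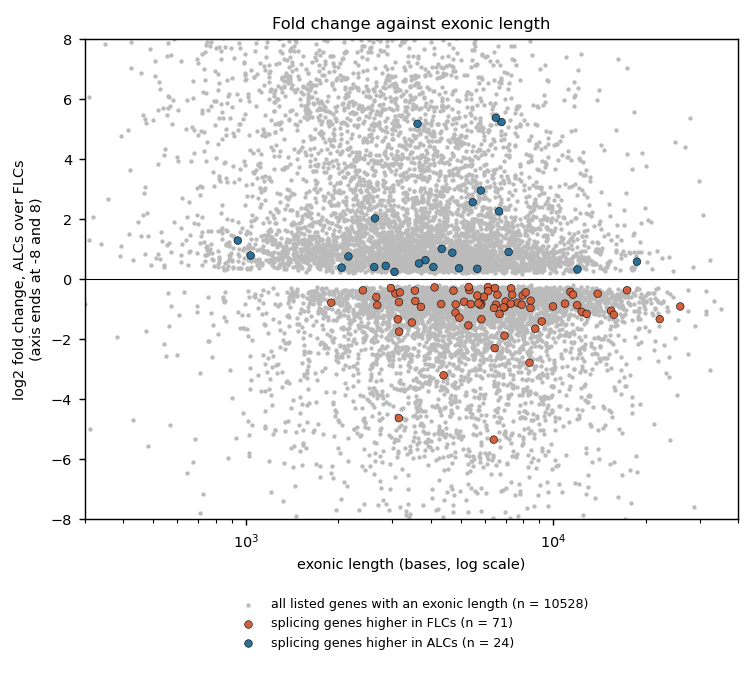
Log2 fold change, ALCs over FLCs, (y axis) against exonic length in bases (x axis, log scale) for listed genes (grey) and the 95 splicing genes (orange, higher in FLCs; blue, higher in ALCs). Of 44 splicing genes of at least 6000 bases, 38 lie below 0.

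Many splicing factor genes carry annotated transcripts that are targets of nonsense-mediated decay, a known means by which SR and hnRNP proteins limit their own levels. At least 1 such transcript was annotated in GENCODE vM21 for 45 of 71 members higher in FLCs (63.4%) and for 5 of 24 higher in ALCs (20.8%). Over listed genes the shares were 29.0% and 24.0%. Retained-intron transcripts were annotated for 77.5% and 70.8% of the members, and for 57.8% and 49.0% of listed genes. These are properties of the annotation, which also grows with the length and study of a gene, and counts per gene do not show which of its transcripts changed.

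Other genes of splicing, from a list of 72 that the symbol rule leaves out, were also mostly higher in FLCs where listed. Of these 49 were listed, 35 higher in FLCs (71.4%, against 46.1% of all listed genes) and 14 in ALCs, with a median of -0.46. Enriched were 3 in FLCs (6.12% of the 49) and 2 in ALCs (4.08%), where 22.3% and 32.1% of listed genes were. Those in FLCs were Pnn, a speckle and junction protein (2792 and 1074 normalized counts, -1.38 ± 0.16), Luc7l3, related to a U1 protein of yeast (4088 and 1596, -1.36 ± 0.13), and Cwc22, which places the exon junction complex (1272 and 566, -1.17 ± 0.30). Those in ALCs were Zmat5, a protein of the minor spliceosome (2269 and 8451, 1.90 ± 0.17), and Ctnnbl1, of the Prpf19 complex (618 and 1241, 1.01 ± 0.13). Nono and Sfpq, partners in paraspeckles that also take part in splicing, were higher in FLCs at -0.95 ± 0.10 and -0.70 ± 0.15.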

How the data were processed

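RNA of Nr5a1-GFP sorted cells was sequenced in 3 libraries per stage (stranded, rRNA-depleted total RNA, paired end). The authors demultiplexed the reads with CASAVA 1.8.2, mapped them to GRCm38 with GemTools, counted reads by gene and tested ALCs against FLCs with DESeq2. The deposited table holds, for genes with an adjusted p below 0.05, the mean normalized signal over all libraries, the log2 fold change and its SE in log2 units, the Wald statistic (a score, with its sign opposite to the fold change in all 10580 genes) and the p-value with its Benjamini-Hochberg adjustment. These are columns of the authors' own comparison. They were used because no other values were analysed here, and the fold changes and adjusted p-values printed are those of the table.

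From them, group means were derived as mean × 6 / (3 + 3 × fold) and that times the fold, assuming equal weights of the libraries, with 95% intervals of 1.96 SE. The number of tests, 16049, was recovered from p and adjusted p of 10564 genes, with a largest deviation of 0.717%. The step between the lowest implied means gave the size of 1 read. Counting intervals are exact (Clopper-Pearson) and cover counting error only. They and their ratios rest on reads rounded to whole numbers and scaled by the size of 1 read, so a ratio can differ slightly from the fitted fold. The number of tests and the test against a log2 limit of 1 were tried on simulated data with far fewer changed genes than here. The formula for group means was tried there without noise, which checks the algebra only. The size of 1 read and the counting intervals were not simulated. All 95 members matched GENCODE vM21 by symbol, and 10528 listed genes matched by symbol or synonym. Exonic length is the union of a gene's exons. Scripts used Python 3.11.15, scipy 1.17.1 and pandas 2.3.3.

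The splicing genes, groups and lists were chosen with earlier results of these data known. Named in each group were every enriched gene, the most abundant, the gene nearest to no change and whole paralog sets; other genes were named after their values were seen. Nothing in the labels says which animals a library holds, so p-values measure the spread between these libraries. Alternatives were other thresholds, a minimum fold tested by its SE, minimum means, centring and an adjustment over listed genes alone.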

Additional observations from a re-analysis of the deposited data

How the results depend on the processing

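The count of splicing genes enriched in FLCs (21) and in ALCs (7) stayed within 1.5 times under adjusted p limits of 0.05 and 0.001 and under an adjustment over listed genes alone. Without a fold limit the counts were 62 and 19, and at a fold above 1.5 they were 48 and 13. Testing against a log2 limit of 1 on either side left 8 and 4, with 16 members losing the call, and a mean of at least 100 left 3 enriched in ALCs. Centring on the median of all listed genes (0.41) gave 47 enriched in FLCs and a median of -0.99, and centring on listed genes with a mean of at least 1000 (0.32) gave 47 and -0.90, with the listed adjusted p kept in both. Under the first centring 5 of 95 members changed side: Rbm28 (-0.0515), Rbm7 (-0.0337), Snrpd1 (-0.0123), Hnrnpf (-0.153) and Mbnl2 (-0.0728). These shifts follow from the centring itself, and the medians used are those of listed genes and not of all tests. Of the 28 enriched members, those nearest the fold limit were Esrp2 (1.019), Rbm5 (-1.04) and Srpk1 (-1.08), and just outside lay Khdrbs1 (-0.95), Prpf4b (-0.95), Rbm39 (-0.93), Tial1 (-0.93) and Rbm47 (0.91). No paired analysis was possible because no values of single libraries were analysed here, and for the same reason no replicate was left out. Depth limits the folds of genes at a few reads, as the counting intervals of Srrm3, Rbm44 and Celf3 show.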

Other observations

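Genes of nonsense-mediated decay, which removes transcripts with early stop codons, were on the same side as the splicing genes. Of a list of 10, 7 were in the table and all 7 were higher in FLCs, with a median log2 fold change of -0.49. Among all listed genes 46.1% were higher in FLCs, with a median of 0.41. Smg6, the endonuclease of the pathway, was the only enriched one, which is 14.3% of the 7, where 22.3% of listed genes were. It had 3131 normalized counts in FLCs and 1340 in ALCs (-1.22 ± 0.11, DESeq2 adjusted p 6.08e-30). Upf1, its central helicase, had 2997 and 2080 (-0.53 ± 0.15), Smg1, the kinase of Upf1, 5405 and 3862 (-0.49 ± 0.19), and Upf3b 1128 and 656 (-0.78 ± 0.14).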
